A study of Mus musculus with 144 samples.

Results

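Cells of the retina that carried transcripts of MHC class II were compared with cells that carried few or none, across all other genes. Cells with at least 1000 detected genes were kept (140 of 144), a gene being detected at an FPKM (reads scaled to the length of the gene and to the reads assigned in the cell) of 1 or more. The cells were chosen by measured FPKM values: a kept cell was called expressing when 2 or more of the 4 genes H2-Aa, H2-Ab1, H2-Eb1 and Cd74 had an FPKM of 10 or more, and non-expressing when none did. The rule gave 32 expressing and 77 non-expressing cells, and 31 cells with exactly 1 of the 4 genes at that level were left out of the comparison. The measured values of these 4 genes chose the cells, so their levels are described and support nothing.

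The series holds single cells sorted by fluorescence from the retina of Iba1-EGFP mice, in which a green fluorescent protein marks Iba1-positive cells such as microglia, the resident macrophages of nervous tissue. Its title concerns GPR84, TNF and IL-1α after optic nerve injury, whereas the sample labels give no injury or time. There were 3 groups of 48 cells: mice given vehicle (PBS, aged 10 to 14 weeks), ripasudil at 1 mg/kg (Low, aged 14 weeks) or ripasudil at 10 mg/kg (High, aged 12 weeks), where ripasudil is a drug that inhibits the ROCK kinases. All groups carried the reporter, age differed between the groups, and the labels name no animal for any cell. Each group therefore counts as 1 sample, cells are not replicates, and no test was made between the classes or the groups. Each cell is its own library, and no pair of kept cells correlated above 0.68 in log expression over the measured genes.

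MHC class II molecules present peptides from endocytosed proteins to CD4+ T cells. H2-Aa with H2-Ab1, and H2-Eb1 with its own alpha chain, encode the surface chains. Cd74 encodes the invariant chain that holds the groove closed until cathepsins degrade it, and H2-DM exchanges its last fragment for a peptide. Resting microglia carry little of these proteins, and interferon-gamma induces them through the transactivator CIITA, which works with factors bound at the X and Y boxes of the promoters. Macrophages at the borders of nervous tissue, around vessels and in the meninges and ciliary body, commonly carry more.

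Promoter stretches of H2-Aa, H2-Eb1 and H2-DMb2 are shown because they hold the X and Y boxes shared by genes of the class II group. The first capitals mark an X box (AAC, then NN or NNN, then TGANG) and the last a Y box (GATTGG), in RefSeq promoter sequence of GRCm38.p6 read 5′ to 3′ on the gene's strand.
H2-Aa: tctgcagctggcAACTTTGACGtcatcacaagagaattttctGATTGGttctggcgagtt
H2-Eb1: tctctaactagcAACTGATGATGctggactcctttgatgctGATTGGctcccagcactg
H2-DMb2: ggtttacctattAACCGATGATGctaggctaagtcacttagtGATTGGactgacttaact

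These stretches lie at chr17:34287855-34287914 (minus strand), chr17:34305766-34305824 (plus strand) and chr17:34145116-34145175 (plus strand). The first X box base stands 79, 89 and 121 bases before the RefSeq start of H2-Aa, H2-Eb1 and H2-DMb2. The order of an X box, a gap of 10 to 30 bases and a Y box was found on either strand in 34 of 32851 mouse promoters (0.103%), and in 5 of 8 listed class II genes that have a promoter entry (H2-Aa, H2-Eb1, H2-DMb1, H2-DMb2 and H2-Ob). The X box alone was in 5.77% of promoters and the Y box alone in 16.1%. A match of letters is a description and no measure of binding.

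Interferon-stimulated genes carry another element, and stretches of Isg15 and Bst2 are shown because both belong to the interferon list described further on. The capitals mark GAAANNGAAA, a core of the interferon-stimulated response element.
Isg15: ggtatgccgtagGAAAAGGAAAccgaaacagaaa
Bst2: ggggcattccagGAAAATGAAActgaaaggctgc

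They lie at chr4:156200875-156200908 and chr8:71537581-71537614, both on the minus strand of GRCm38.p6. The element was in 3.44% of all promoters on either strand, and in 8 of the 18 listed interferon genes searched that have a promoter entry. In H2-Aa, H2-Eb1 and H2-DMb2 it was absent from the searched window only in the sense that these letters were not found there.

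Expressing cells were found in every group and on every plate. They were 15 of 46 kept cells in PBS (32.6%, exact Clopper-Pearson 95% interval 19.5 to 48%), 7 of 47 in Low (14.9%, 6.20 to 28.3%) and 10 of 47 in High (21.3%, 10.7 to 35.7%). The intervals overlap, cover counting error only and ignore the animals. By plate the counts were 7 of 16, 6 of 16 and 2 of 14 in PBS. They were 2 of 15, 4 of 16 and 1 of 16 in Low, and 4 of 15, 5 of 16 and 1 of 16 in High. In each group the third plate had the fewest expressing cells.

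Cd74 was at or above 10 in all 32 expressing cells and H2-Ab1 in 31 of them, whereas H2-Aa and H2-Eb1 each reached it in 10. The usual expressing cell thus had the invariant chain and 1 beta chain only: 20 cells had 2 of the 4 genes, 5 had 3 and 7 had all 4. Among the cells with exactly 1 gene, that gene was Cd74 in 22 and H2-Ab1 in 9. H2-Aa (chr17:34282744-34287823), H2-Ab1 (chr17:34257689-34269419) and H2-Eb1 (chr17:34305867-34316674) lie side by side on chromosome 17, and an antisense gene model overlaps H2-Eb1.

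In PBS the expressing cells had Cd74 FPKM values from 22.6 to 13126 with a median of 136, against 0 to 6.53 with a median of 1.66 in the non-expressing cells. In Low the range was 28.1 to 17259.7 (median 158) against 0 to 9.28 (median 0.761). In High it was 11.1 to 23719.9 (median 74.7) against 0 to 7.82 (median 0.624). The classes cannot overlap at 10 for 2 genes because the rule sets them apart. At the threshold, the lowest second-highest values among expressing cells were 10.0 and 11.1, and the highest among cells with exactly 1 gene were 9.79 and 9.72. The highest single values in non-expressing cells were 9.28 and 8.54, the median of each cell's highest value was 1.01, and 8 of the 77 had all 4 genes at 0.

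**Figure D1:**
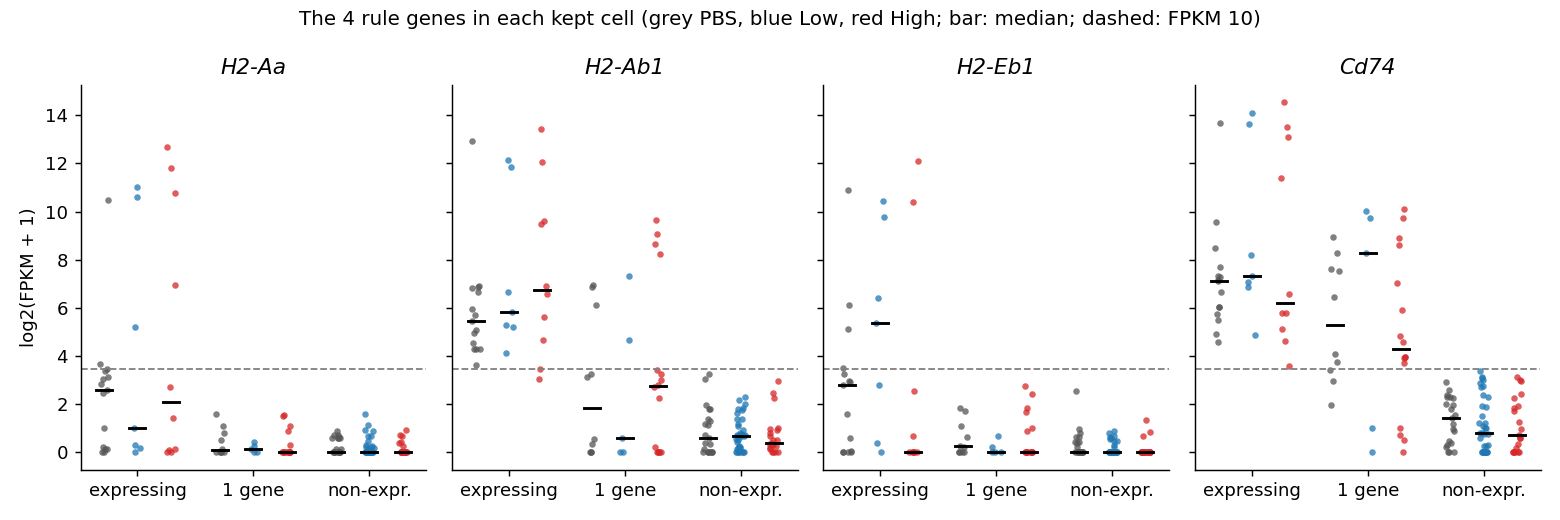
Each point is 1 kept cell, with log2(FPKM + 1) of H2-Aa, H2-Ab1, H2-Eb1 and Cd74 on the vertical axis, by class (expressing, exactly 1 gene, non-expressing) and group, a bar at the median and a dashed line at an FPKM of 10. A few cells stand far above the others, and H2-Aa and H2-Eb1 reach the line in 10 expressing cells each.

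The expressing class held a small set of cells with far higher levels. In 7 cells the summed FPKM of the 4 genes was 3613 or more, while the highest sum in the other 25 was 800.04, with a median of 189. These 7, called the top cells here, held 96.3% of the summed FPKM of the class. There was 1 in PBS, 2 in Low and 4 in High. This cut at 1000 was set after the values were seen.

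Some of the expressing calls rest on few reads. Reads per cell were recovered from the FPKM steps, and in 9 of 32 expressing cells the second rule gene held fewer than 20 reads, with 1 read in the lowest (a PBS cell of plate 1). Fewer than 300000 reads were recovered in 7 expressing cells, 5 of them in PBS, and in 0 of 77 non-expressing cells. Cells without the call also held low reads of these genes on some plates. On PBS plate 1 the 9 such cells had medians of 2, 10, 1 and 9 reads of H2-Aa, H2-Ab1, H2-Eb1 and Cd74, against 0, 0.5, 0 and 3 in the 12 of PBS plate 3. The part of free RNA in calls at low reads was not tested.

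All 32 expressing cells and 76 of 77 non-expressing cells had 3 or more of 8 microglia markers (among them Csf1r, P2ry12, Tmem119, Cx3cr1, Siglech, Sall1 and Fcrls) at an FPKM of 1 or more. Csf1r, the receptor for colony-stimulating factor 1, was detected in every cell of both classes. Markers of border macrophages also differed: 10 of 32 expressing cells (5 in PBS, 3 in Low and 2 in High) and 2 of 77 non-expressing cells had 3 or more of 10. Some of these calls rest on few reads, since 1 read can pass an FPKM of 1 in a shallow cell. Low plate 2 D1 had 6 markers at 50760 reads and PBS plate 1 A5 had 3 at 87121 reads. The others had more than 300000 reads, as had all non-expressing cells. The part of depth in this contrast was not tested. The summed FPKM of the 10 ran from 0.045 to 5754 (median 12.8) in expressing cells and from 0 to 2364 (median 0.343) in non-expressing cells. Cd209f was at 0 in every compared cell, and Cd163 and Cbr2 were detected in 2 expressing cells each. Dendritic cell markers showed 3 or more in 0 expressing and 4 non-expressing cells, with Clec9a and Cd209a at 0 in all expressing cells. Their summed FPKM ran from 0 to 119 (median 6.30) in expressing cells and from 0 to 338 (median 0.696) in non-expressing cells. At least 3 rod photoreceptor markers, which can come with retinal debris, were in 8 expressing and 10 non-expressing cells, and their source was not tested. Monocyte markers reached 3 in 3 expressing cells and no non-expressing cell, with the most, 5, in Low plate 2 D1 at 50760 reads. Their summed FPKM ran from 0 to 272 (median 0.046) in expressing cells and from 0 to 951 (median 0.104) in non-expressing cells.

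Expressing cells had more detected genes in every group. Their number ran from 1910 to 7220 (median 3852) in PBS against 1144 to 5484 (median 2255) in non-expressing cells. In Low it ran from 2391 to 6138 (median 4452) against 1209 to 7293 (median 2116), and in High from 1472 to 6149 (median 3203.5) against 1006 to 6077 (median 1894). The ranges overlapped in each group. After thinning to 300000 reads the medians were 4381.5 against 2829, 4120.5 against 2455 and 3633 against 2224, with 5, 1 and 1 expressing cells too shallow to enter. Averaged over the groups, the difference of medians was 1748, and 2576 without plate 1 and 809 without plate 2. The order was the opposite on PBS plate 2 (3476 against 4003.5) and High plate 1 (1529.5 against 1931).

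**Figure D2:**
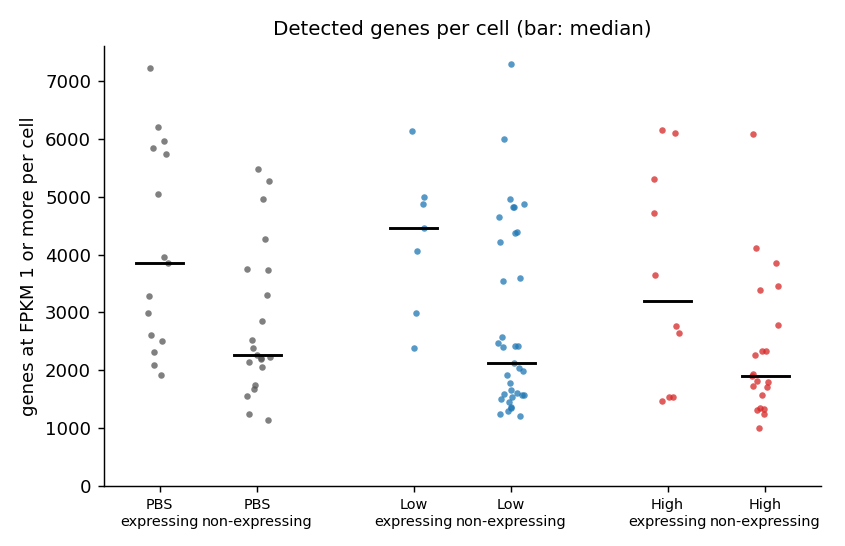
Each point is 1 cell, with its number of genes at an FPKM of 1 or more, by group and class, and a bar at the median. The expressing medians of 3852, 4452 and 3203.5 lie above the non-expressing medians of 2255, 2116 and 1894, with overlapping ranges.

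A difference is given below as the mean of log2(FPKM + 1) in expressing cells minus that in non-expressing cells, within each group, then averaged over the 3 groups. It mixes how many cells had a gene with how much they had, and understates changes of low genes. Genes were measured where 20% or more of the compared cells detected them, which left 4629 without the 4 of the rule. Of these, 996 (21.5%) were higher by 1 or more with the same sign in all groups, 12 (0.259%) were lower, and 80.3% were above 0. The median of all genes was 0.49 (0.37 in PBS, 0.54 in Low and 0.51 in High). Within single groups, 23.9% of genes in PBS, 34% in Low and 30.9% in High were higher by 1 or more, and 3.35%, 3.54% and 2.33% were lower. With the number of detected genes as a covariate within each group, 156 (3.37%) were higher, 214 (4.62%) lower, 42% above 0, and the median was -0.11. The count of higher genes was 1565 without plate 1, 602 without plate 2 and 612 without plate 3. On log2 ratios of mean FPKM, 249 were higher and 471 lower, with a median of -0.17. Most genes below are therefore given with their adjusted difference, from the fit with detected genes as covariate, and both are to be read against the medians of all genes. With plate as a term within each group, in a fit added after the data were seen, 911 genes were higher and 16 lower, with a median of 0.45.

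Of the 996 genes higher in expressing cells, 148 were still higher by 1 or more when adjusted, and 107 had an adjusted difference at or below 0. The 12 lower genes were lower when adjusted as well. Mir5107, an annotated miRNA gene lying within Cd74, had a difference of 7.42 before and after adjustment. Reads of Cd74 can fall on it, so it is not read as a result of its own.

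Genes of the class II route other than the 4 were higher together before adjustment. Of 9 measured members of the list, 7 were higher by 1 or more and none lower, against 21.5% and 0.259% of all genes. The median was 1.39 (1.00 in PBS, 1.34 in Low and 1.72 in High), and 0.82 without plate 3. The adjusted median was 0.45, with -0.14 in PBS, 0.35 in Low and 1.25 in High. When adjusted, 2 (H2-DMb1 and H2-DMb2) were higher and 1 (Ctsl) lower, against 3.37% and 4.62% of all genes. H2-DMb1 (chr17:34153072-34160230), a chain of the peptide exchanger H2-DM, had FPKM values of 0 to 2915 (median 15.4) in expressing and 0 to 667 (median 1.10) in non-expressing PBS cells. In Low the values were 2.86 to 1218 (median 324) against 0 to 4979.5 (median 3.38), and in High 0.167 to 462 (median 53.6) against 0 to 277 (median 1.07). Every pair of ranges overlapped, and non-expressing Low cells reached the highest value of all.

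The H2-DMb1 difference was 2.54 (SD 0.74 over the 3 groups), 1.76 adjusted. At an FPKM of 100 or more it was in 14 of 32 expressing and 17 of 77 non-expressing cells. Of the non-expressing cells, 39 had a class II rule gene at an FPKM of 1 or more. H2-DMb2, its neighbour and near relative, had 1.64 (1.18 adjusted), and reads shared between these similar genes cannot be told apart here. H2-DMa, the other H2-DM chain, had 1.41 but -0.10 adjusted, and its annotated span overlaps Brd2. Ifi30, a thiol reductase that opens disulphide bonds of antigens, had 2.02 (1.08 adjusted, with -0.015 in PBS).

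Among the proteases, Lgmn (legumain) had 1.22 and Ctsb (cathepsin B) 1.07, with 0.59 and 0.45 adjusted. Ctss, the cathepsin that trims the invariant chain, was in every compared cell and differed by 0.30 (-0.11 adjusted). Ctsl differed by 0.01 (-1.47 adjusted). Cd86, a costimulatory ligand for T cells, had 1.39, with 2.36 in PBS, 1.34 in Low, 0.48 in High and 0.12 adjusted. The transactivator Ciita was detected in 1 expressing cell, at an FPKM of 12.2 in a top cell of Low, and in no other compared cell at 1 or more, so its level could not be compared. H2-Oa, H2-Ob, H2-Eb2, Rfx5, Rfxap, Rfxank, Cd80 and Cd40 did not pass the 20% filter.

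Genes of MHC class I, which presents peptides made inside the cell, were also mostly higher before adjustment. Of 19 measured, 10 were higher by 1 or more and none lower (median 1.08), against 21.5% and 0.259% of all genes. When adjusted, 3 were higher and 2 (the chaperones Canx, -1.39, and Calr, -1.09) lower, against 3.37% and 4.62% of all genes. The adjusted median was 0.31. H2-T23, a nonclassical class I heavy chain, had 2.68 (1.87 adjusted) and Tap1, a subunit of the peptide transporter, 1.99 (1.35 adjusted). The classical heavy chain H2-K1 had 1.89 (0.84 adjusted). Psme1, a proteasome activator subunit, had 2.02 with 0.45 adjusted.

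Interferon-response genes were higher in expressing cells, and least so in PBS. Of 24 measured, 15 were higher by 1 or more and none lower, against 21.5% and 0.259% of all genes. The median was 1.53 (0.93 in PBS, 1.70 in Low, 2.42 in High). When adjusted the median was 0.90, with 7 higher and none lower, against 3.37% and 4.62% of all genes. Ifitm3 (chr7:141009586-141010770), a membrane protein that restricts virus entry, had FPKM values of 1.95 to 2254 (median 88.3) in expressing PBS cells and 0 to 3559.8 (median 123) in the non-expressing. In Low these were 1.37 to 9460.1 (median 2877) against 0 to 4251 (median 5.45), and in High 13.7 to 20104 (median 1378) against 0 to 2694 (median 7.28). The PBS classes sat at the same level, while in both ripasudil groups the expressing medians lay far above the others with overlapping ranges.

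The Ifitm3 differences were 0.20, 5.87 and 4.91 in PBS, Low and High (mean 3.66, SD 3.03 over the groups). Adjusted, they were -0.40, 4.79 and 3.82 (mean 2.74), thus below 0 in PBS. Ifi27l2a, another interferon-induced gene, had 0.34, 3.99 and 6.65, and -1.27, 2.81 and 6.47 adjusted. In High it reached an FPKM of 100 in 7 of 10 expressing and 0 of 21 non-expressing cells, and in PBS in 6 of 15 and 10 of 21. Whether the groups differ in these differences was not tested, since each is 1 sample, and the groups also differ in age. Bst2 (tetherin) had 1.91, 4.77 and 2.42, with a mean of 3.03 (1.69 adjusted). Oas1a, a sensor enzyme for double-stranded RNA, had 2.85 (2.36 adjusted), Ifit3 1.89 (1.84 adjusted) and Isg15 1.68 (0.92 adjusted). The transcription factor Irf7 had 1.44 (1.28 adjusted), whereas Irf1 had 0.33 and Cxcl10 0.019 (-0.57 and -0.52 adjusted). Iigp1 and Cxcl9, which interferon-gamma induces strongly, did not pass the filter.

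Every measured immediate early gene was higher in expressing cells. These are genes switched on within minutes of stimulation, also by tissue dissociation. All 15 were higher by 1 or more, against 21.5% of all genes, with a median of 2.89 (2.74 in PBS, 3.58 in Low, 2.65 in High). After adjustment 11 of 15 still were (median 1.36), against 3.37% of all genes. Dusp1 (chr17:26505590-26562128), a phosphatase that switches off MAP kinases, had FPKM values of 1.37 to 2225 (median 85.9) in expressing PBS cells against 0 to 3399 (median 1.98). In Low the values were 10.5 to 1773 (median 1359) against 0 to 2276 (median 3.34), and in High 1.58 to 2033 (median 109) against 0 to 3811 (median 2.85). The medians differed far more than the upper ends: 18 of 32 expressing and 21 of 77 non-expressing cells were at 100 or more.

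Dusp1, whose annotated span overlaps Ergic1, differed by 3.63 (SD 0.95), or 2.33 adjusted, and 3.16 without the top cells. On log2 ratios of mean FPKM it was 0.80. Egr1, Atf3 and Fos, transcription factors of the same response, had 3.43, 3.33 and 3.03, with 1.65, 1.47 and 1.36 adjusted. The zinc-finger factor Klf2 had 2.89 (1.49 adjusted). Ier2, Ier3 and Btg2 had 3.32, 3.56 and 3.02, with 1.27, 1.83 and 1.36 adjusted. Nfkbia, the inhibitor that NF-kB induces to limit itself, had 3.28 (1.58 adjusted) and Nfkbiz 2.79 (1.05 adjusted). In the Toll-like receptor and NF-kB list, 8 of 11 were higher by 1 or more (median 1.39, adjusted 0.65), against 21.5% of all genes. Its member Cd14, the lipopolysaccharide coreceptor, had 2.53 (1.26 adjusted).

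**Figure D3:**
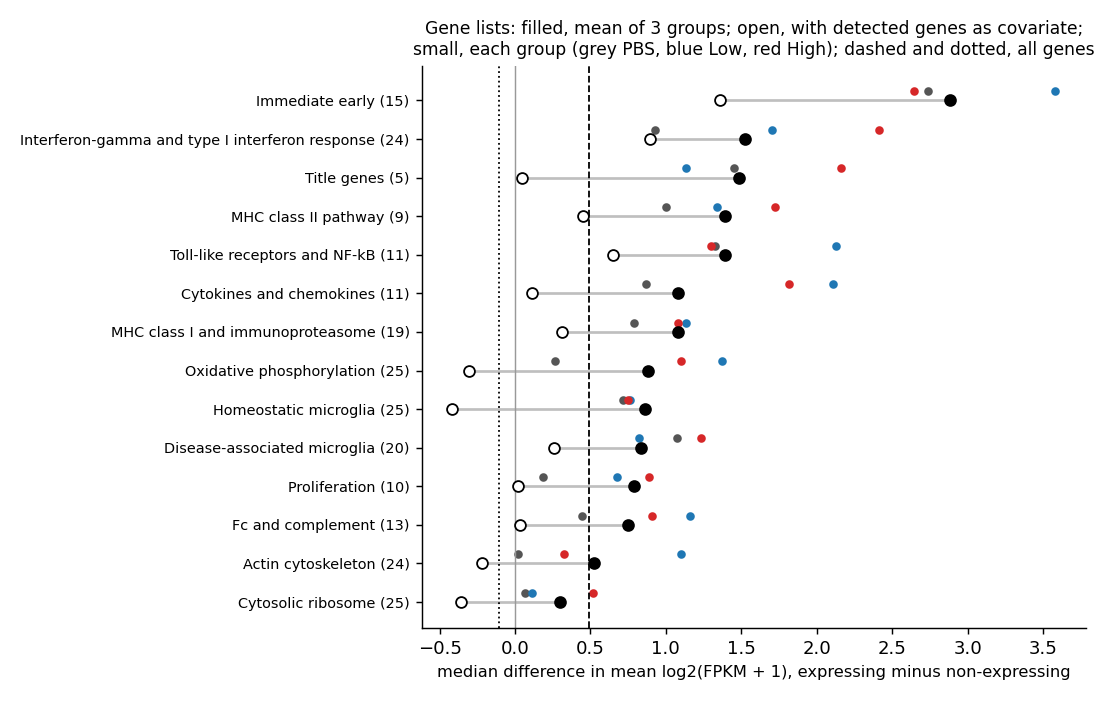
Median difference in mean log2(FPKM + 1), expressing minus non-expressing cells, for 14 gene lists with the number of measured genes in brackets. Filled points are means of the 3 groups, open points are adjusted for detected genes, small points are single groups, and the dashed (0.49) and dotted (-0.11) lines are all genes before and after adjustment. The immediate early (2.89) and interferon (1.53) lists stand highest, also when adjusted.

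The genes of the series title were higher in expressing cells, but not all at equal detected genes. Tnf (chr17:35199381-35202007), the inflammatory cytokine, had FPKM values of 0.740 to 1794 (median 27.4) in expressing PBS cells against 0 to 949 (median 1.90). In Low they were 0 to 2112 (median 36.1) against 0 to 1872 (median 1.02), and in High 0.376 to 771 (median 9.58) against 0 to 667 (median 1.67). The medians were higher in each group and the ranges overlapped widely.

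Tnf differed by 3.67, 3.03 and 2.31 in PBS, Low and High (mean 3.0, adjusted 1.13). Il1a, another cytokine gene, had 2.07 (0.05 adjusted), and Gpr84, the receptor for medium-chain fatty acids, 1.48 (-0.42 adjusted). By group, Gpr84 differed by 1.45 in PBS, 0.26 in Low and 2.74 in High. It was at 100 or more in 13 of 32 expressing and 22 of 77 non-expressing cells, and within Low in 2 of 7 and 13 of 35. No top cell was at 100 or more for Gpr84, and Tnf and Il1a reached 100 in 1 top cell each. Without the top cells the differences were 3.88 for Tnf, 3.08 for Il1a and 2.74 for Gpr84. Rock1, a kinase that ripasudil inhibits, differed by 0.81 in PBS, 0.87 in Low and -0.21 in High. Rhoa, the small GTPase that activates it, differed by 1.04, 1.14 and -1.09, so both had opposite signs across the groups (means 0.49 and 0.36, adjusted 0.13 and -0.92). In the cytokine and chemokine list 5 of 11 were higher, against 21.5% of all genes. Among them were Cxcl16 (2.46, adjusted 1.56), Ccl3 (1.95, adjusted 0.18) and Ccl4 (1.67, adjusted 0.08).

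Complement and Fc receptors were partly higher. Of 13 measured genes 6 were higher by 1 or more, against 21.5% of all genes (median 0.75, adjusted 0.03, against 0.49 and -0.11 for all genes). The anaphylatoxin receptors C5ar1 and C3ar1 had 2.75 and 2.74, with 1.44 and 1.38 adjusted. The complement component genes C1qa, C1qb and C1qc had 0.75, 0.25 and 0.088, with 0.32, -0.016 and -0.16 adjusted.

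Homeostatic microglia genes, which mark the resting state, had a median above 0 before adjustment and below 0 after it. Of 25 measured, 9 were higher by 1 or more and 1 (Sparc) lower, against 21.5% and 0.259% of all genes. The median was 0.86. When adjusted the median was -0.41, with none higher and 4 lower, against 3.37% and 4.62% of all genes. P2ry12, the ADP receptor, had 1.13 (-0.42 adjusted), Siglech, a sialic acid-binding receptor, 1.25 (0.22 adjusted) and Tmem119 0.05 (-1.54 adjusted).

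The disease-associated microglia list, genes known from plaque-associated microglia, had 9 of 20 higher and 1 (Ctsd) lower, against 21.5% and 0.259% of all genes. The median of the list was 0.83 (0.26 adjusted). Apoe (chr7:19696109-19699188), the lipid carrier apolipoprotein E, led it. Its FPKM values were 1.56 to 18018 (median 210) in expressing PBS cells against 0 to 9892 (median 13.7). In Low they were 0.136 to 16338 (median 52.2) against 0.176 to 28473 (median 7.81), and in High 1.54 to 28839.5 (median 1577) against 0 to 674 (median 8.46). Expressing medians were higher in each group, and the classes overlapped.

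Apoe differed by 2.54, 2.84 and 5.58 in the 3 groups (mean 3.65, SD 1.67, adjusted 3.53). It was 1.44 without the top cells, and 1.79 without cells carrying 3 or more border macrophage or dendritic markers. Lyz2 (lysozyme) had 2.04 (1.38 adjusted), and 0.66 without the top cells. Axl, a receptor tyrosine kinase for apoptotic cells, had 2.17 (0.85 adjusted), and 2.01 without them. Retinal Müller glia also express Apoe: 3 or more of 8 Müller glia markers, a list that holds Apoe, were in 7 expressing and 4 non-expressing cells, and in 0 of the 7 top cells. These were 21.9% of the 32 expressing and 5.19% of the 77 non-expressing cells. Of the 8 markers, only Aqp4 was at 0 in all expressing cells. The part of such RNA in the Apoe values was not tested.

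**Figure D4:**
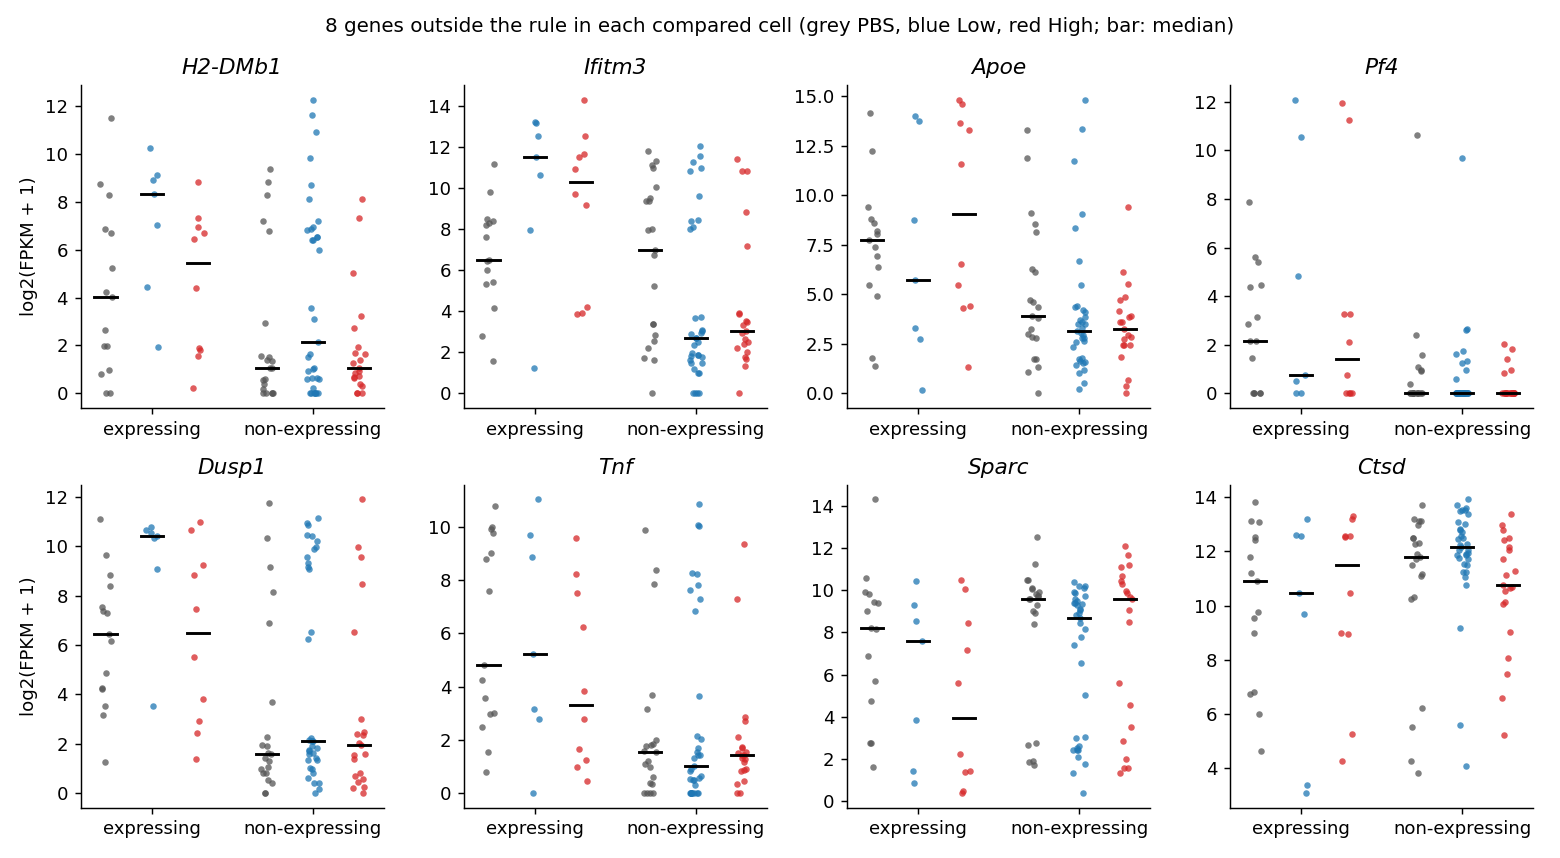
Log2(FPKM + 1) of H2-DMb1, Ifitm3, Apoe, Pf4, Dusp1, Tnf, Sparc and Ctsd in each compared cell, by class and group, with a bar at the median. Both classes span the range of most genes. For Dusp1, 18 of 32 expressing and 21 of 77 non-expressing cells are at an FPKM of 100 or more.

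Few genes were lower in expressing cells, and Sparc and Ctsd among them were no longer lower without the top cells. Sparc (chr11:55394500-55423183), a secreted matrix protein of microglia, had FPKM values of 2.07 to 20351 (median 299) in expressing PBS cells against 2.30 to 5859.8 (median 773). In Low they were 0.830 to 1398 (median 192) against 0.309 to 1348 (median 415), and in High 0.326 to 1433 (median 25.6) against 1.55 to 4417 (median 764). Medians were lower in the expressing cells of each group, with overlap throughout.

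Sparc differed by -1.36 (-2.28 adjusted), and by 0.055 without the top cells. Ctsd (cathepsin D), the main lysosomal aspartic protease, differed by -1.19 (-1.93 adjusted) and by 0.20 without them. Rpl21 differed by -1.41 and Phgdh, the first enzyme of serine synthesis, by -1.16 (-1.46 and -2.39 adjusted), and by -0.63 and -0.75 without the top cells. Rpl21 has 15 processed copies in the annotation, so its reads are uncertain. The histone H2A genes, Hist1h2ap and Hist1h2ao, gave -1.21 each, and -1.22 for Hist1h2ap without the top cells, and are near-identical.

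Among housekeeping lists before adjustment, ribosome and actin had a smaller share past 1 than the 21.5% of all genes, and oxidative phosphorylation a larger one. The cytosolic ribosome list had 1 of 25 higher and none lower (median 0.30), the actin cytoskeleton 4 of 24 higher (median 0.52) and oxidative phosphorylation 7 of 25 higher (median 0.88, against 0.49 for all genes). When adjusted, none of the 3 lists had a higher gene, and 4, 4 and 2 were lower, against 4.62% of all genes, with medians of -0.36, -0.22 and -0.30. In the proliferation list 2 of 10 measured were higher, a share close to that of all genes: Mcm3 (1.15, adjusted 0.13), a subunit of the replicative helicase, and Pcna (1.22, adjusted 0.016), the sliding clamp of DNA polymerase. Neither was past 1 when adjusted, and Mki67 and Top2a did not pass the filter.

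The 7 top cells differed from the other 25 expressing cells in more than the 4 genes. Apoe was 9819.5 to 28839.5 FPKM (median 16338) in the top cells, against 0.136 to 4754.6 (median 83.1) in the others and 0 to 28473 (median 8.80) in non-expressing cells. The top cells lay above every other expressing cell. Pf4, platelet factor 4, which border macrophages express, was detected in 6 of 7 top cells with a median of 1488, in 12 of 25 others with a median of 0.666 and in 14 of 77 non-expressing cells. It reached 100 in 5 of 7, 0 of 25 and 2 of 77. Ms4a4a, a tetraspan membrane protein of macrophages, had medians of 1579.8, 0.370 and 0 in the same order. Cells with exactly 1 rule gene are outside this contrast and varied widely. Among them PBS plate 2 A3 had Apoe at 26508, Pf4 at 2782 and 7 border macrophage markers. Low plate 1 F2 had Apoe at 27445 and Pf4 at 1.76, and High plate 3 H6 had both at 0.

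Several microglia genes were low in the top cells. Tmem119 had medians of 1.13 FPKM in the top cells, 221 in the other expressing cells and 47.1 in non-expressing cells, and Sall1, a transcription factor that marks microglia, was detected in 1 of 7, 13 of 25 and 14 of 77. Sparc had medians of 1.58, 348 and 536, and Ctsd of 23.8, 5529.8 and 3838. Csf1r and Cx3cr1 were in all 7, with medians of 417 and 373. Of the top cells 4 had 3 or more border macrophage markers, against 6 of 25 others, while Lyve1, a hyaluronan receptor of border macrophages, was at 1 or more in 2 of 7 and Mrc1, the mannose receptor, in 3 of 7. Dendritic markers Flt3, Zbtb46, Xcr1, Clec9a, Cd209a, Ccr7 and Itgae were at 0 in all 7. The rest of the 10 (Batf3, Tbc1d4 and Fscn1) were not all at 0. A top cell had at most 2 of the 10 detected, with a summed FPKM up to 31.7 (median 0.245). Rod markers reached 3 or more in 3 of the 7, with summed FPKM values up to 4949 in the Low top cells. The part of border macrophages or debris in these differences was not tested. The top cells are set only by the cut at a summed FPKM of 1000 among expressing cells, and the name gives no cell type.

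**Figure D5:**
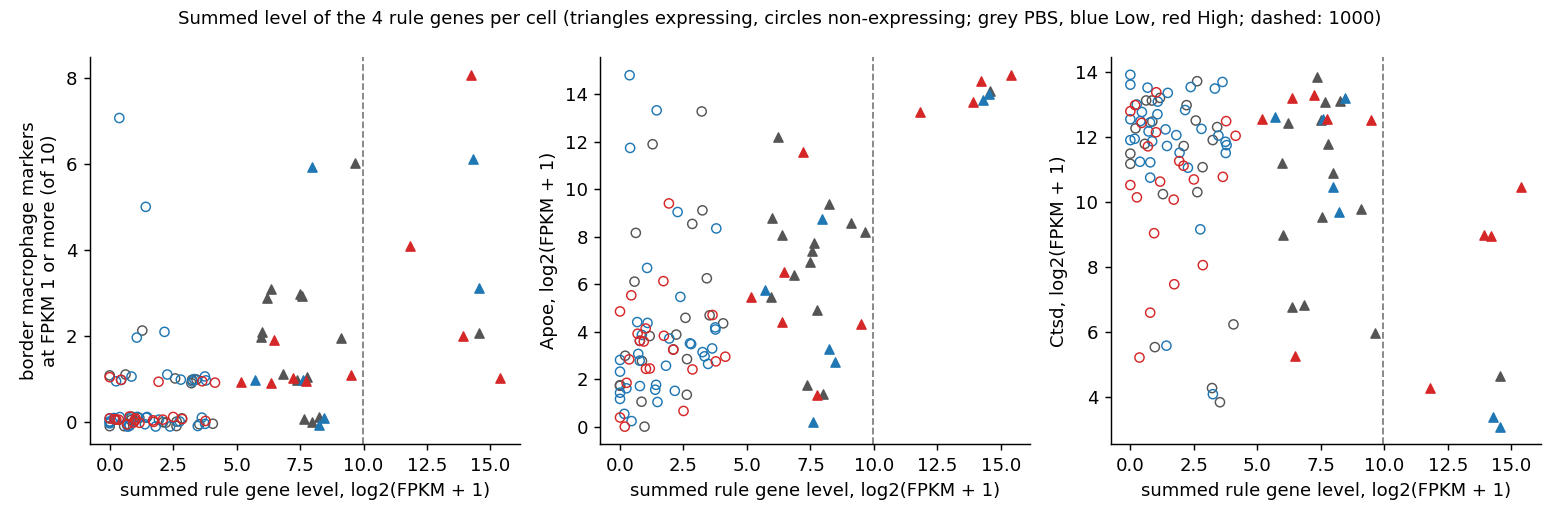
Summed FPKM of the 4 genes in each compared cell, as log2(FPKM + 1), against the number of border macrophage markers detected (slightly spread for display), Apoe and Ctsd; triangles are expressing cells, circles non-expressing, and the dashed line is a sum of 1000. The 7 cells right of the line have Apoe at 9819.5 FPKM or more.

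The largest adjusted differences with the same sign in all groups, outside the miRNA gene, were those of Apoe (3.53), Pf4 (2.92), Ms4a4a (2.71), Lst1 (2.46) and Themis2 (2.39). These 5 were picked after their values were seen. Lst1, a leukocyte transcript of the MHC class III region (chr17:35185095-35188439), was detected in 18 of 32 expressing and 25 of 77 non-expressing cells, and in 5 of 7 top cells. Its highest value, 10482 FPKM, was in an expressing PBS cell that was no top cell.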

How the data were processed

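The authors deposited FPKM values for 55364 genes in 144 sorted cells, with gene lengths. The submitters' processing notes name Trim Galore 0.4.4, cutadapt 1.16, Trimmomatic 0.36, STAR 2.7.2b, featureCounts 1.6.1 and the build GRCm38.p6. By their usual roles, STAR aligns reads, featureCounts counts them and the other tools trim them. The notes list the trimming tools without role or order. Strand use in counting is not given in the sources used here. Overlapping genes therefore cannot be told apart, also Il1a with Gm14023, Gpr84 with Gm49482, Ctsb with Fdft1 and Tap1 with Psmb9. The commonest positive FPKM times length in each cell was taken as 1 read, which gave 30204 to 4668730 reads per kept cell. A median of 52.9% of positive values were whole within 0.01 read, so no count model was used.

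The members, gene lists and markers were chosen with earlier results of these data known. Differences were means of log2(FPKM + 1), the adjustment was linear in log2 of detected genes within each group, and cells were thinned to 300000 reads for detection. The rule for named genes took the 15 highest and 15 lowest mean differences with the same sign in all 3 groups (without gene models, pseudogenes and miRNA genes), the 3 largest of each of 14 lists, Gpr84, Tnf and Il1a, and all measured class II route genes. Other genes were picked after their values were seen, and some genes the rule names are not reported here. Neutrophil markers reached 3 in 6 expressing (18.8%) and 7 non-expressing cells (9.09%). Of these 8 markers, 1 of the 7 Low expressing cells had 7, and non-expressing cells had at most 5. Their summed FPKM reached 126765 in Low expressing and 82222 in non-expressing cells. The weight of such cells in the differences was not tested. Endothelial or pericyte markers reached 3 in 0 expressing and 1 non-expressing cell, and markers of other retinal neurons in 0 and 1. Markers of B cells, T or NK cells, astrocytes and erythroid cells reached 3 in 0 compared cells. No doublet caller was run on these sorted cells. Alternatives covered the rule, the cells, plates and groups, the filter, the pseudocount and the scale. The calculations were tested on simulated data. Python 3.11.15, numpy 2.4.6, pandas 2.3.3, scipy 1.17.1 and matplotlib 3.10.9 were used.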

Additional observations from a re-analysis of the deposited data

How the results depend on the processing

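No paired analysis was possible because the labels name no animal for any cell. Both classes share plates, so plate was added as a term within each group (a replicate block by plate, chosen after seeing the data). It gave 911 genes higher and 16 lower, a median of 0.45 for all genes, and 1.17, 1.49, 0.86 and 2.66 for the class II route, interferon, homeostatic and immediate early lists, and reversed no value. Leaving out 1 plate or 1 group at a time is given as a range. The difference in detected genes was 1748 (809 to 2576), genes higher 996 (602 to 1565), genes lower 12 (2 to 39), and the median of all genes 0.49 (0.26 to 0.80). The class II route median was 0.82 to 2.05, the homeostatic 0.42 to 1.54, the interferon 1.21 to 1.90 and the immediate early 2.02 to 3.81, all above 0. The ribosome median ran from -0.19 (without High) to 0.47, and was -0.10 without plate 3.

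Below, the order is genes higher, genes lower, median of all genes, then the class II route, interferon, homeostatic and immediate early medians, as far as they moved. A rule at an FPKM of 1 called 65.2%, 36.2% and 42.6% of PBS, Low and High cells, with a detected-gene difference of 278, and gave 262, 35, 0.18, 0.85, 0.23 (homeostatic) and 1.33 (immediate early). There the proliferation list was -0.037, Hist1h2ap 0.042, Hist1h2ao 0.044, Axl -0.19 and Arpc3 -0.15. A rule at 100 called 6.52%, 4.26% and 8.51%. With 3 or more rule genes the PBS and High shares were 10.9% and 6.38%, genes lower 112, and the medians 0.34, 2.35 (interferon), 0.0099 (homeostatic) and 4.10, with Gpr84 at -0.47. With 2000 detected genes or more the values were 929 for detected genes, 485, 96, 0.14, 0.81, 0.32 (homeostatic) and 2.21, with the ribosome list at -0.48 and Rps24 at -0.12.

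With a pseudocount of 0.1 the values were 1717, 48, 0.91, 1.96, 2.27, 1.34 and 3.55. With 10 they were 159, 4, 0.13, 0.69, 0.67, 0.30 and 1.99, with the ribosome list at -0.025. Log2 ratios of mean FPKM gave 249, 471, -0.17, 0.31, 0.69, -0.26 and 1.10. They also put below 0 the lists for Fc and complement (-0.078), proliferation (-0.30), actin (-0.26), ribosome (-0.36) and oxidative phosphorylation (-0.42). The same held for Cd86 (-0.65), Gpr34 (-0.47), Fcgr1 (-0.078), Pcna (-0.29), Tpm3 (-0.25), Arpc3 (-0.54) and Ndufs6 (-0.97). The covariate gave 156, 214, -0.11, 0.45, -0.41 (homeostatic) and 1.36, with actin at -0.22, ribosome at -0.36, oxidative phosphorylation at -0.30, H2-DMa at -0.10 and Gpr84 at -0.42. A filter at 40% of cells gave 479, 6 and 0.89 (homeostatic), and no filter beyond 1 cell gave 0.030 for all genes, 0.31 for the class II route and 2.28 for immediate early.

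Without cells carrying rod markers the homeostatic median was 1.04. Without those with border macrophage or dendritic markers it was 1.40, and Ctsd 0.13. Of the alternatives chosen after seeing the data, leaving out the top cells gave a homeostatic median of 1.28, Sparc 0.055 and Ctsd 0.20. Requiring 20 reads of 2 rule genes gave 2640.0 for detected genes, 6 genes lower, 0.73, 1.78 and 1.07 (homeostatic). Requiring 300000 reads gave 0.59 for all genes and 1.02 (homeostatic). The cause of each shift was not tested. Depth limits the calls with few reads and genes near an FPKM of 1.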
